A study of Arabidopsis thaliana with 4 samples.

Results

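Cuticular wax is the lipid film that covers the aerial epidermis of plants and limits water loss. Its constituents are made in epidermal cells from fatty acyl chains that a complex in the endoplasmic reticulum lengthens. The chains then enter an alkane-forming or an alcohol-forming branch, and the products are moved through the plasma membrane to the surface. Water deficit and abscisate are known to raise wax production in Arabidopsis, in part through the MYB-type activators MYB96 and MYB94. Described here are 10 genes of this pathway in Arabidopsis thaliana, taken by locus identifier out of the 33602 genes of each deposited table, and all 10 were found. They are the alkane-branch genes CER1, CER3 and MAH1, the alcohol-branch genes CER4 and WSD1, the elongation genes CER6 and KCS1, the export gene LTPG1, and the regulators MYB96 and MYB94. The rule that picks them uses no measured value.

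The study set a transgenic line that overexpresses the small open reading frame sORF1511 (genotype overexpressor, line 7 in the design text) against the reference accession Col-0 (WT). Both genotypes were whole seedlings at 12 days, with 2 libraries each, and every library came from a pool of 5 seedlings. The labels call the libraries biological replicates. The overexpressor is a single line whose promoter is not named in the labels, so the line and the transgene cannot be told apart, and the p-values measure only the spread between these pools. Total estimated reads were 18547136 and 25740234 in overexpressor replicates 1 and 2, and 13974460 and 24508631 in WT replicates 1 and 2. WT replicate 1 stood apart in composition, with 31.7% of its reads from chloroplast- and mitochondrion-encoded genes, against 1.02 to 1.47% in the other libraries. Deposited TPM values, a level per transcript length that sums to the same total in every library, of nuclear genes are therefore scaled down in that library, where they sum to 720528, against 987205 to 990216 elsewhere. Levels between libraries are given as CPM, reads scaled by TMM and not by length, and levels between genes as TPM. A count of 3 reads, the smallest taken as measured, corresponds to 0.109 to 0.268 CPM.

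None of the wax genes passed the test of overexpressor against WT. Of the 10 genes, 9 had enough reads for the test, and 0 rose and 0 fell at an adjusted p below 0.05 (edgeR's quasi-likelihood test, Benjamini-Hochberg adjusted over 19474 genes), where 0.149% of all genes tested were called, 0.139% as higher and 0.0103% as lower. The 95% interval of the log2 fold change lay within 1 of 0, that is within a 2-fold change either way, for 8 of the 9 tested wax genes, against 69.5% of all genes tested. The exception was MAH1, which had the lowest fold change of the list and was lower in both overexpressor libraries. The median log2 fold change of the 9 genes was 0.040, beside -0.013 over all genes tested. At an unadjusted p below 0.05 there were 2 wax genes, CER1 on the higher and MAH1 on the lower side, beside 21.7% of all genes tested. With limma-voom 0 wax genes passed after adjustment, as did 0 of all genes tested, and with DESeq2 MAH1 alone passed, on the lower side, where 1.48% of genes were called out of 5.88% in all. Without WT replicate 1, the library that stood apart, 0 wax genes rose and 0 fell in edgeR's test, which then called 240 of all genes as higher and 140 as lower. In every fit with 1 library left out, the spread came from the pair of the other genotype alone, and the lone library was assumed to vary like it.

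The levels of the 10 genes, set against each other per length, spanned a wide range with the same order in each of the 4 libraries. LTPG1 was the most abundant, at 370 and 399 TPM in the overexpressor libraries and 312 and 407 TPM in the WT libraries. CER6 followed at a mean of 144 TPM over the 4 libraries, CER1 at 110, KCS1 at 64.4 and CER3 at 46.6 TPM. The ranges of CER6 and CER1 overlapped across libraries, as did those of KCS1 and CER3, and of MYB96 and MYB94, although the order held within each library. In each pair the overlap came from WT replicate 1, where TPM of nuclear genes is scaled down. Among the other libraries these ranges did not overlap. The regulators lay lower, with MYB96 at a mean of 7.53 and MYB94 at 5.54 TPM, then WSD1 at 3.41, MAH1 at 1.70 and CER4 at 0.339 TPM. LTPG1, CER6 and CER1 together made up 83.7% and 83.6% of the summed TPM of the 10 genes in the overexpressor libraries, and 82.4% and 81.7% in the WT libraries.

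**Figure D1:**
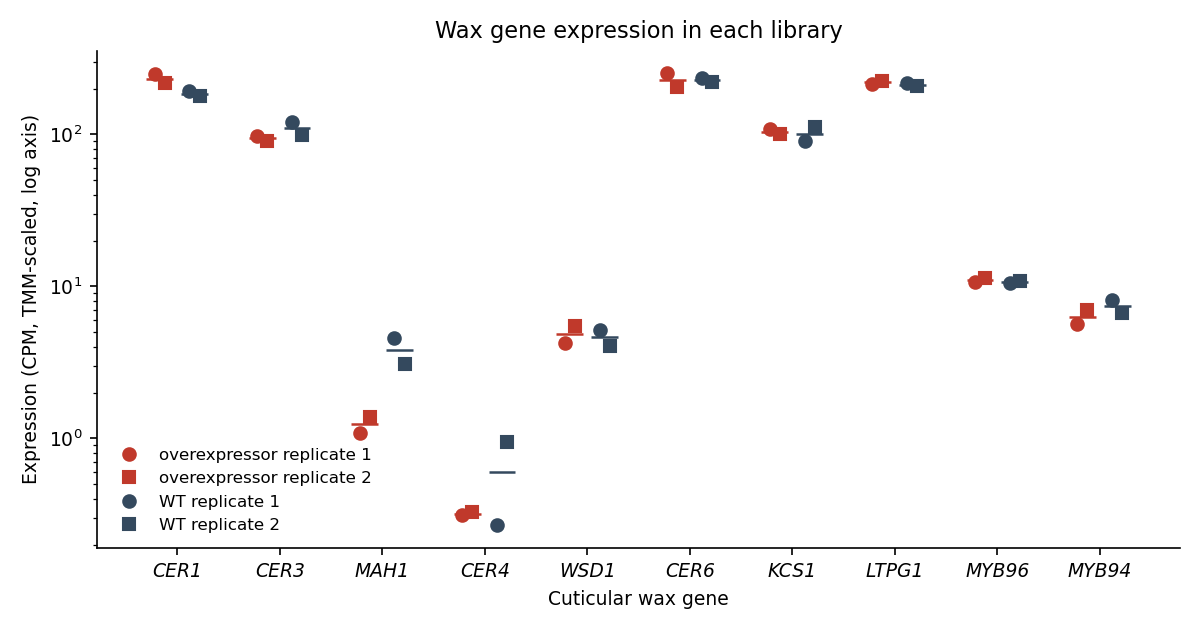
CPM after TMM scaling (log axis) of the 10 wax genes in each library, with overexpressor libraries left of WT libraries in each pair and the mean of each genotype as a short line. The genotypes nearly coincide for CER6, KCS1, LTPG1 and MYB96, while both overexpressor libraries lie below both WT libraries for MAH1.

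Among the alkane-forming genes, CER1 encodes the enzyme of alkane formation and CER3 its partner in the same complex. CER1 (AT1G02205) had 248 and 218 CPM in the overexpressor libraries, against 192 and 178 CPM in the WT libraries. The genotypes did not overlap, and each overexpressor library exceeded the higher WT library. Means were 233 ± 21.4 CPM in the overexpressor and 185 ± 9.9 CPM in WT (SD, n = 2 each). The log2 fold change was 0.33 ± 0.10 (SE) with a 95% interval of 0.065 to 0.60, and edgeR's adjusted p was 0.178. The neighbouring gene AT1G02190, with no gene between them in the reference used for names, is a listed relative of CER1 whose reads the authors' counting could share. It had 2.03 and 1.93 CPM in the overexpressor libraries and 2.41 and 2.60 CPM in the WT libraries and so lay far below CER1 in every library.

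CER3 (AT5G57800) showed the opposite sign, with 97.1 and 91.2 CPM in the overexpressor libraries and 120 and 98.8 CPM in the WT libraries. Its log2 fold change was -0.22 ± 0.12 with an interval of -0.53 to 0.094, and edgeR's adjusted p was 0.348, so no difference was shown beyond the spread between pools. Without WT replicate 1 the log2 fold change was 0.40 for CER1 and -0.057 for CER3. Of the 9 tested wax genes, CER1 was without overlap on the higher side, and CER3 and MAH1 on the lower side. Over all genes tested, 28.7% were without overlap on the higher and 28.4% on the lower side, or 57.1% in all.

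Since CER1 and CER3 act together, their ratio within a library was also taken, which no scaling between libraries can alter. The ratio of TPM was 2.91 and 2.72 in the overexpressor libraries, against 1.82 and 2.05 in the WT libraries. The genotypes did not overlap, with means of 2.81 ± 0.13 in the overexpressor and 1.94 ± 0.17 in WT (SD, n = 2 each). An exact permutation test over the 4 libraries gave a two-sided p of 0.333 for this ratio, which is the smallest that 2 libraries against 2 allow (0.5 after Benjamini-Hochberg adjustment over the 3 ratios computed). The ratio of CER6 to KCS1 was 2.36 and 2.08 in the overexpressor libraries and 2.63 and 2.03 in the WT libraries, where the genotypes overlapped. That of MYB96 to MYB94 was 1.60 and 1.44 in the overexpressor libraries and 1.08 and 1.35 in the WT libraries, without overlap. The pairs were chosen after the values of the single genes had been seen.

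**Figure D2:**
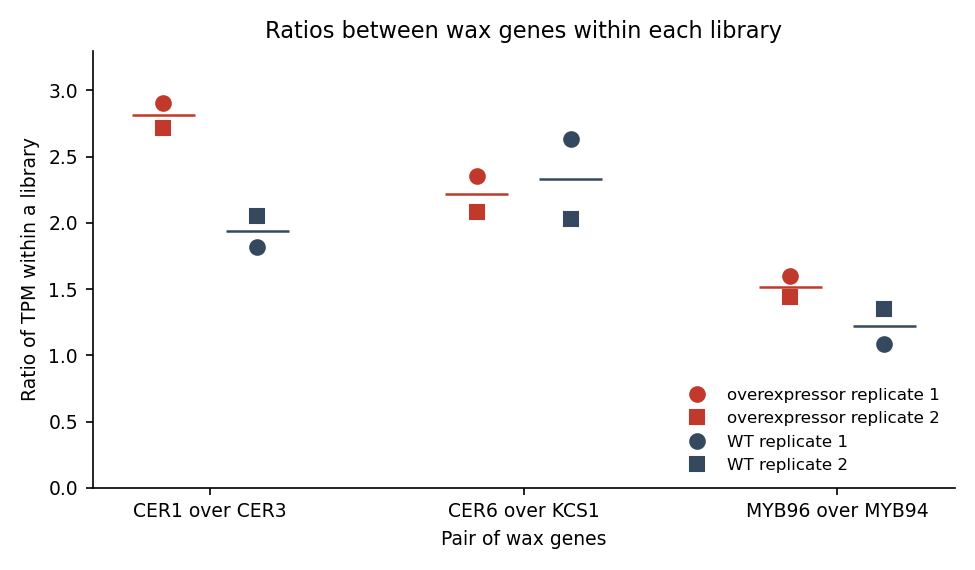
Ratio of TPM between paired wax genes within each library (linear axis from 0), overexpressor left of WT, with the mean of each genotype as a short line. CER1 over CER3 lies at 2.72 and 2.91 in the overexpressor libraries, above the 1.82 and 2.05 of the WT libraries, while CER6 over KCS1 overlaps.

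MAH1 (AT1G57750) encodes the cytochrome P450 that hydroxylates alkanes at mid-chain to secondary alcohols and ketones, products best known from stem wax. It had 21 and 38 reads, or 1.09 and 1.39 CPM, in the overexpressor libraries, against 51 and 86 reads, or 4.56 and 3.11 CPM, in the WT libraries. Both WT libraries lay above both overexpressor libraries, and the exact 95% counting intervals of the levels did not meet, with 0.981 to 1.90 CPM in overexpressor replicate 2 and 2.49 to 3.84 CPM in WT replicate 2. These intervals cover counting error only. Means were 1.24 ± 0.21 CPM in the overexpressor and 3.83 ± 1.02 CPM in WT (SD, n = 2 each). The log2 fold change was -1.60 ± 0.33 with an interval of -2.45 to -0.76. Its Benjamini-Hochberg adjusted p was 0.117 in edgeR and 0.0415 in DESeq2. Without WT replicate 1 the log2 fold change of MAH1 was -1.30 and edgeR's adjusted p 0.135. Without WT replicate 2 it was -1.86 and edgeR's adjusted p 0.0393, with the spread taken from the overexpressor pair alone. Without overexpressor replicate 1 or 2 the adjusted p was 0.520 or 0.638, with the spread taken from the WT pair alone, whose pools differed more (correlation of log2 CPM across genes 0.983 between the overexpressor pools and 0.954 between the WT pools). On log2(TPM + 1) the log2 fold change of MAH1 was -0.91. On that scale a pseudocount compresses differences between low levels.

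Endodermis markers of the root were lower in value in the overexpressor pools, as MAH1 was. Of 5 such markers 4 were tested, and all 4 were lower in value. Over all genes tested, 51.3% had a log2 fold change at or below -0.0017, the value of CER6. In edgeR's test 0 of the endodermis markers passed after adjustment. With DESeq2 1 passed on the lower side, the Casparian strip gene CASP1 (adjusted p = 5.97e-06), beside 1.48% of all genes. CASP1 had 10 and 25 reads in the overexpressor libraries, against 49 and 210 reads in the WT libraries. The summed level of the 5 markers was 31.6 and 31.0 CPM in the overexpressor libraries, against 45.1 and 45.8 CPM in the WT libraries. Most of it came from the transcription factor gene SCR, which had 30.2 and 29.2 CPM in the overexpressor libraries, against 38.4 and 33.2 CPM in the WT libraries. The log2 fold change was -0.27 for SCR and from -3.04 for CASP1 to -1.53 for MYB36 among the other tested markers. No endodermis marker was at 0 in any library. Lower values were not particular to this list, with 7 of 8 epidermis markers and 31 of 45 other wax and cutin genes lower. All 5 mesophyll markers and the 3 tested trichome and root epidermis markers were higher in value. Between the WT pools the log2 ratio of replicate 2 over replicate 1 was -0.55 for MAH1, and among the 4 tested markers it was -0.21 for SCR, 0.79 for CASP1, 0.50 for CASP4 and 1.53 for MYB36. The part of tissue shares in the MAH1 values was not tested, and in pooled whole seedlings fewer cells of a type and less RNA per cell cannot be told apart.

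In the alcohol-forming branch, CER4 (AT4G33790) encodes the fatty acyl-CoA reductase that makes primary alcohols. It was barely detected, with 6 and 9 reads in the overexpressor libraries and 3 and 26 reads in the WT libraries, and did not pass the low-count filter. The genotypes overlapped, since WT replicate 1 was lowest at 0.268 CPM and WT replicate 2 highest at 0.940 CPM, with 0.312 and 0.328 CPM in the overexpressor libraries. The counting interval of WT replicate 1 reached from 0.0553 to 0.784 CPM, so that no difference was detectable at this depth. CER4 is known to be expressed in roots and trichomes. Of 7 trichome and root epidermis markers, the root hair genes COBL9 and EXPA7, picked after their values were seen, were also highest in WT replicate 2. COBL9 had 1 and 4 reads in the overexpressor libraries and 1 and 58 in WT replicates 1 and 2, and EXPA7 had 1 and 5 reads in the overexpressor libraries and 3 and 71 in WT replicates 1 and 2. RHD6 was likewise highest in WT replicate 2, at 0.506 CPM on 14 reads, while GL3, WER, TRY and GL2 were highest in another library. The log2 ratio between WT replicates 2 and 1 was 1.81 for CER4. It was smaller for the other 5 markers, with -0.33 for GL3, -0.043 for WER, 0.093 for TRY, 0.33 for GL2 and 0.50 for RHD6. The part of these markers in the CER4 values was not tested.

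WSD1 (AT5G37300), the wax ester synthase that joins primary alcohols to acyl chains, had 4.27 and 5.51 CPM in the overexpressor libraries and 5.19 and 4.05 CPM in the WT libraries. The genotypes overlapped, and the log2 fold change was 0.10 ± 0.24 with an interval of -0.52 to 0.72. Its direction turned when WT replicate 2 or overexpressor replicate 2 was left out. With 58 to 151 reads a library, the interval left out any change beyond 1.65-fold.

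Elongation, the step that feeds both branches, is represented by a pair of condensing enzymes. CER6 (AT1G68530, also KCS6) is the main condensing enzyme of shoot wax, and KCS1 (AT1G01120) a second one of broader use. CER6 had 253 and 206 CPM in the overexpressor libraries and 237 and 222 CPM in the WT libraries, so that the WT values lay between those of the overexpressor. Its log2 fold change was -0.0017 ± 0.12, with an interval of -0.32 to 0.32. KCS1 had 109 and 100.2 CPM in the overexpressor libraries and 91.3 and 112 CPM in the WT libraries, and here the overexpressor values lay between those of WT. The log2 fold change was 0.040 ± 0.13, with an interval of -0.28 to 0.36. The interval of CER6 left out changes beyond 1.25-fold and that of KCS1 changes beyond 1.28-fold. The signs of these values near 0 turned with single settings and libraries.

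LTPG1 (AT1G27950), a lipid transfer protein anchored to the outer face of the plasma membrane that is needed for full wax load on stems, had the narrowest interval. It stood at 215 and 225 CPM in the overexpressor libraries and 217 and 210 CPM in the WT libraries. Means were 220 ± 7.1 CPM in the overexpressor and 213 ± 5.17 CPM in WT (SD, n = 2 each). The log2 fold change was 0.046 ± 0.084 with an interval of -0.17 to 0.26.

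MYB96 (AT5G62470) and MYB94 (AT3G47600) are related R2R3-type MYB activators of wax genes that respond to drought and abscisate. MYB96 had 10.7 and 11.5 CPM in the overexpressor libraries and 10.6 and 10.8 CPM in the WT libraries. All 4 libraries thus lay close together, with a log2 fold change of 0.053 ± 0.13 and an interval of -0.28 to 0.38. MYB94 had 5.62 and 7.00 CPM in the overexpressor libraries and 8.14 and 6.69 CPM in the WT libraries, which overlapped. Its log2 fold change was -0.22 ± 0.20 with an interval of -0.73 to 0.29. The deposited length of MYB96, an average over its transcripts, was 1663 bases in overexpressor replicate 2 and 1745 bases in the other 3 libraries. That is the widest span of any of the 10 genes, since the others varied by at most 8.28 bases.

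**Figure D3:**
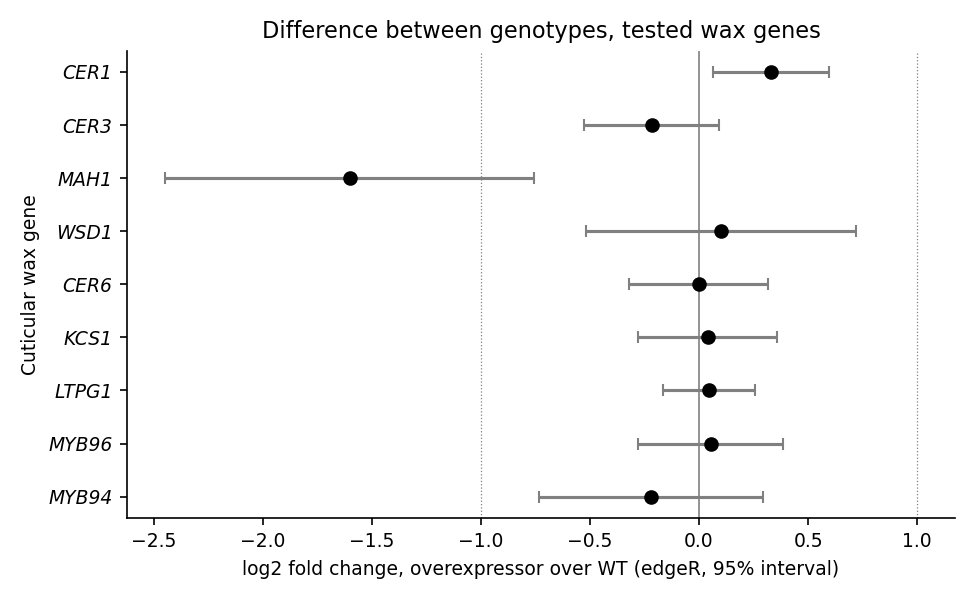
Log2 fold change of overexpressor over WT for the 9 tested wax genes, with 95% intervals from edgeR's fit as bars and dotted lines at a 2-fold change. The intervals of 8 genes stay between the dotted lines, and that of MAH1 runs from -2.45 to -0.76.

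The pools of a genotype also differed from each other. Between the WT pools the log2 ratio of replicate 2 over replicate 1 was 1.81 for CER4, -0.55 for MAH1, -0.36 for WSD1 and 0.29 for KCS1, and it was -0.050 for LTPG1. Between the overexpressor pools it was 0.37 for WSD1, 0.34 for MAH1, 0.32 for MYB94 and -0.29 for CER6. The difference of CER1 between genotypes, at 0.33, exceeded its differences between pools, at -0.19 in the overexpressor and -0.11 in WT. That of MAH1, at -1.60, also exceeded its differences between pools. That of CER3, at -0.22, did not exceed the -0.29 between the WT pools. The share of all genes that exceed their pool differences was not taken, and 57.1% of all genes tested were without overlap between genotypes.

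A further 49 genes of wax and cutin were listed in 5 groups, and 45 of them had enough reads for the test. Of these, 0 rose and 0 fell at an adjusted p below 0.05 in edgeR's test. At an unadjusted p below 0.05 there were 2 on the higher and 7 on the lower side, where 11.9% and 9.81% of all genes tested stood. With DESeq2, 2 passed on the higher side (4.40% of all genes called) and 2 on the lower side (1.48%). The median log2 fold change was -0.081, beside -0.013 over all genes tested, with 14 genes higher and 31 lower in value. Of all genes tested, 51.3% had a log2 fold change at or below -0.0017, the value of CER6. That is the nearest share taken for genes lower in value, here and for the lists below. Without overlap between genotypes were 6 on the higher and 16 on the lower side, where 28.7% and 28.4% of all genes tested stood.

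The elongation group held 14 tested genes with a median of -0.15, of which 2 were higher and 12 lower in value. KCS2 (AT1G04220), a condensing enzyme known for root suberin and for wax, had the highest value, with 22.7 and 20.7 CPM in the overexpressor libraries and 9.57 and 13.3 CPM in the WT libraries. Its log2 fold change was 0.91 ± 0.19, and its adjusted p was 0.115 in edgeR and 0.00774 in DESeq2. The acyltransferase-like CER26, which helps chains grow to greater length, was the other gene with a higher value, at 67.3 and 61.4 CPM in the overexpressor libraries and 41.3 and 56.7 CPM in the WT libraries.

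The elongation complex holds a condensing enzyme, a reductase (KCR1), a dehydratase (PAS2) and a second reductase (CER10), which serve every acyl chain whatever its condensing enzyme. KCR1 had 31.6 and 30.8 CPM in the overexpressor libraries, against 57.9 and 44.5 CPM in the WT libraries. Its log2 fold change was -0.71 ± 0.15, and its adjusted p was 0.117 in edgeR and 0.00628 in DESeq2. With the lone WT library set against the overexpressor pair, edgeR's adjusted p was 0.079 for KCR1 and 0.068 for KCS2 without WT replicate 1, and 0.012 for KCR1 and 0.015 for KCS2 without WT replicate 2. With the spread from the WT pair, it was 0.483 for KCR1 and 0.463 for KCS2 without overexpressor replicate 1, and 0.655 for KCR1 and 0.607 for KCS2 without overexpressor replicate 2. PAS2 had 37.8 and 40.2 CPM in the overexpressor libraries, against 62.1 and 50.1 CPM in the WT libraries. CER10 had 53.2 and 49.6 CPM in the overexpressor libraries, against 78.8 and 63.8 CPM in the WT libraries. All 3 were among the genes without overlap on the lower side (28.4% of all genes tested), but that share is no yardstick for them. KCR1 and PAS2 are named as the 2 lowest of the group, and CER10 was added after its values were seen. None passed edgeR's test on all 4 libraries, with adjusted p of 0.139 for PAS2 and 0.157 for CER10. Each was highest in WT replicate 1. The log2 ratio of WT replicate 2 over WT replicate 1 was -0.38 for KCR1, -0.31 for PAS2 and -0.30 for CER10. The log2 fold change of PAS2 was -0.52 with all libraries. Without WT replicate 1 it was -0.35 for PAS2 and -0.50 for KCR1. The other condensing enzymes had log2 fold changes of -0.17 for KCS20, -0.081 for KCS9, -0.086 for KCS5, -0.16 for KCS10 and -0.49 for KCS16, and none passed.

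In the modification group, 6 of 7 genes were tested with a median of -0.22. The WSD1 relative AT3G49210, an O-acyltransferase of the WSD1-like family, had the highest fold change of the 45 genes, with 10.6 and 10.3 CPM in the overexpressor libraries, against 2.15 and 3.98 CPM in the WT libraries. The genotypes were well apart, at 203 and 282 reads in the overexpressor libraries and 24 and 110 reads in the WT libraries. Its log2 fold change was 1.71 ± 0.30 with an interval of 0.96 to 2.47, and its adjusted p was 0.0938 in edgeR and 0.000394 in DESeq2. It passed in 5 of 13 other settings. In edgeR's fits with a single WT library, which take the spread from the overexpressor pair alone, it was 1.40 without WT replicate 1 (adjusted p = 0.0352) and 2.28 without WT replicate 2 (adjusted p = 0.00861). With the spread from the WT pair alone it was 1.73 without overexpressor replicate 1 (adjusted p = 0.369) and 1.76 without overexpressor replicate 2 (adjusted p = 0.597). Of its relatives, AT5G12420 had a log2 fold change of -0.18 ± 0.23, FOP1 (also WSD11) had -1.27 ± 0.84 on 2 to 16 reads a library, and AT1G72110 had 0 reads in all 4 libraries. A count of 3 reads, the smallest taken as measured, corresponds to 0.268 CPM in WT replicate 1, so lower levels of AT1G72110 could go unseen there. The desaturase ADS4 stood at 0.13 ± 0.26 and AT1G02190 at -0.35 ± 0.26.

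The export group showed values close to 0 or slightly below. The transporter genes ABCG11 and ABCG12 had log2 fold changes of -0.12 ± 0.085 and -0.22 ± 0.12, and LTPG2, a relative of LTPG1, had -0.0028 ± 0.12. In the regulation group, 10 of 13 genes were tested and their median was 0.015. DEWAX, a repressor of wax genes, had the highest value at 0.46 ± 0.29, with 7.49 and 9.74 CPM in the overexpressor libraries and 4.56 and 7.70 CPM in the WT libraries, which overlapped. The transcription factor SPL9 stood at 0.31 ± 0.19, the ubiquitin ligase CER9 at -0.047 ± 0.097, and MYB30, a relative of MYB96 and MYB94, at -0.11 ± 0.13. The activator SHN1 had 0 reads in all 4 libraries.

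Of the 12 cutin genes, which build the polyester that the wax coats, all were tested with a median of -0.073. The lowest were LACS2, an acyl-CoA synthetase, at -0.51 ± 0.14 and HTH at -0.43 ± 0.095. HTH had 88.3 and 92.2 CPM in the overexpressor libraries, against 128 and 115 CPM in the WT libraries, and its adjusted p was 0.123 in edgeR and 0.0224 in DESeq2. The highest were the hydroxylases CYP77A6 at 0.16 ± 0.19 and CYP86A2 at 0.13 ± 0.12.

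**Figure D4:**
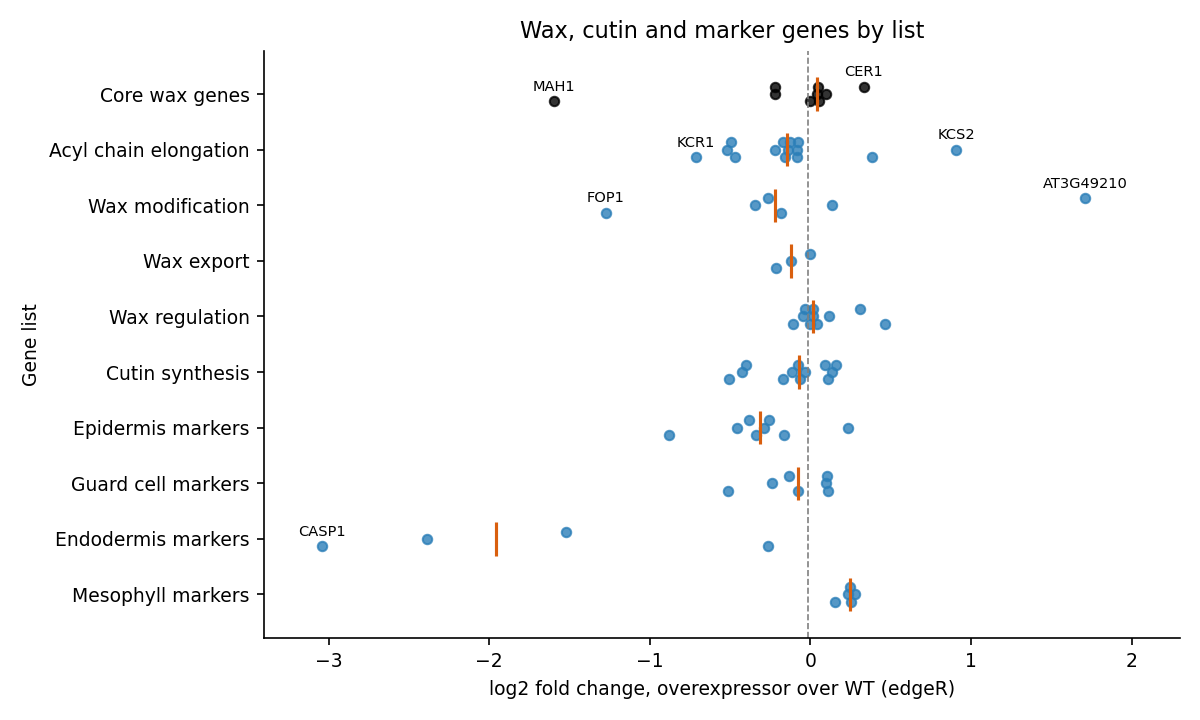
Log2 fold change of overexpressor over WT for each tested gene of the wax, cutin and marker lists, 1 point a gene. The trichome and root epidermis list is not drawn. Each list's median is an orange line, and the median of all genes tested (-0.013) is a dashed line. The core wax genes lie near 0 except MAH1 at -1.60, while AT3G49210 at 1.71 and KCS2 at 0.91 stand highest.

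Since wax is made in the epidermis, marker genes of the layer were read beside these values. Of 8 epidermis markers, all tested, 0 passed edgeR's adjusted threshold, and 7 were lower in value with a median log2 fold change of -0.31. At an unadjusted p below 0.05 there were 5 on the lower side, beside 9.81% of all genes tested. With DESeq2 1 passed on the lower side, PDF1 (adjusted p = 0.0138), beside 1.48% of all genes. PDF1, a marker of the outer layer of shoot meristems and young organs, had 230 and 251 CPM in the overexpressor libraries, against 316 and 312 CPM in the WT libraries. The abundant lipid transfer protein LTP1, the only marker with a higher value, took most of the list's summed level, which was 1857 and 1804 CPM in the overexpressor libraries and 1822 and 1662 CPM in the WT libraries. The 7 guard cell markers had a median of -0.080, with a summed level of 71.5 and 62.4 CPM in the overexpressor libraries and 67.2 and 72.8 CPM in the WT libraries. The 5 mesophyll markers were all higher in value at a median of 0.24, and 0 passed in edgeR or DESeq2. Of 7 trichome and root epidermis markers 3 were tested, GL2, GL3 and TRY, all higher in value at a median of 0.40. The others had too few reads for the test and were lower in mean level in the overexpressor. Their means were 0.169 CPM in the overexpressor and 0.441 CPM in WT for WER, and 0.044 and 0.432 CPM for RHD6. EXPA7 had 0.117 and 1.42 CPM, and COBL9, where the genotypes overlapped, 0.099 and 1.09 CPM. No marker of these lists was at 0 in any library, and their part in the wax gene values was not tested.

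**Figure D5:**
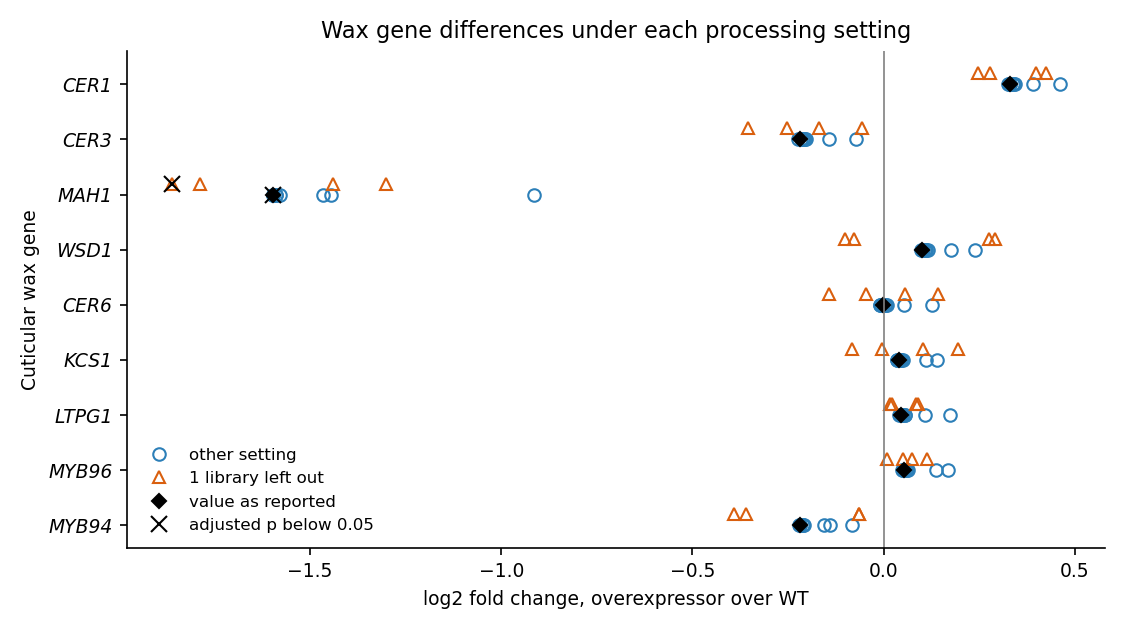
Log2 fold change of overexpressor over WT for each tested wax gene under each processing setting, with the reported value as a filled diamond, other settings as circles, fits with 1 library left out as triangles and crosses where the adjusted p fell below 0.05. Crosses appear for MAH1 alone, at -1.60 with DESeq2 and -1.86 without WT replicate 2, and the values of CER6, KCS1 and WSD1 fall on both sides of 0.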

How the data were processed

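Polyadenylated RNA of 4 seedling pools was sequenced with a stranded protocol, per the labels. Each library has its own table, in which the authors deposited an estimated count for every gene, of which between 96.9% and 97.3% were whole within 0.001, and with TPM values relative to effective length, per the file headers. The deposited length and effective length columns give bases per gene, of which the length was used here. No source used here names the quantifier, the build or the annotation, so no coordinates or sequences are printed, and the submitters' processing notes name DESeq2. Names and gene neighbours came from RefSeq's TAIR10.1 gene table, with 32835 of 33602 identifiers matched.

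Estimated counts were rounded and tested with edgeR 4.0.16 in R 4.3.3 (filterByExpr with a minimum count of 10 and a minimum total of 15, TMM, glmQLFit and glmQLFTest) over 19474 genes, all 4 libraries in a fit on genotype, with Benjamini-Hochberg adjustment. The SE is the unshrunk coefficient over the square root of F, and the 95% interval uses the fit's total degrees of freedom. Alternatives were run with DESeq2 1.42.0, limma 3.58.1, other scalings and filters, TPM with a pseudocount of 1, the replicate number as a block, and each library left out. Replicates differed by more than sampling noise (chi-square per degree of freedom 9.00 in the overexpressor and 397 in WT). Both values include organelle genes, which held 31.7% of reads in WT replicate 1 and 1.47% in WT replicate 2. Nuclear genes alone were not taken.

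The 10 genes and the lists were chosen with earlier results of these data known. Named beyond the 10 are genes past the threshold, the 2 highest and 2 lowest of each wax or cutin list, and relatives of members; CER10, SHN1, PDF1, LTP1 and the named endodermis, trichome and root epidermis markers were added after their values were seen. How reads of close gene copies were assigned is not stated in the labels.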

Additional observations from a re-analysis of the deposited data

How the results depend on the processing

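Counts over all genes depended strongly on the setting, while 0 of the wax genes rose under each of the 13 alternatives. Against 27 genes higher and 2 lower, there were 912 and 307 with DESeq2, 0 and 0 with limma-voom (4081 at an unadjusted p below 0.05), 570 and 239 with scaling by library size only, 305 and 57 with no low-count filter, 65 and 10 with at least 1 CPM in 2 libraries, 250 and 24 with limma-trend on log2(TPM + 1), and 163 and 21 with organelle genes left out. Leaving out 1 library gave from 0 to 1189 higher and from 0 to 1014 lower, the highest counts without WT replicate 2 and the lowest without overexpressor replicate 2. The causes were not tested. Wax genes on the lower side numbered 1 with DESeq2 and from 0 to 1 with a library left out (MAH1 each time). Of the other wax and cutin genes 2 passed on the higher and 2 on the lower side with DESeq2, 1 on the higher side with library size only and 1 with no filter, and with a library left out from 0 to 3 on the higher and from 0 to 4 on the lower side. The median of the wax genes was 0.14 with library size only, which moved the median of all genes to 0.10 from -0.013. It ran from -0.047 to -0.0035 with a library left out. CER4 entered the median wherever a fit kept it, as some fits with a library left out did. Those medians are therefore not over the same 9 genes as the 0.040 of the main fit.

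The replicate number as a block gave 329 genes higher and 43 lower and called 0 wax genes. Same-numbered pools deviated together with a correlation of 0.058 across genes, and nothing in the labels pairs them. With 2 libraries a genotype and WT replicate 1 apart in composition, this correlation cannot tell whether same-numbered pools shared a batch.

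Of 441 gene values under the alternatives, 399 kept direction and side of the threshold, 15 passed newly, and 27 turned sign without passing. With DESeq2, CER6 was 0.0066 and LTPG2 0.0039. With library size only, CER6 was 0.13, KCS9 0.063, KCS5 0.047, LTPG2 0.11, MYB30 0.012 and CER9 0.062. With no filter CER6 was 0.0096 and LTPG2 0.0079. On log2(TPM + 1), CER6 was 0.053, LTPG2 0.058 and CER9 0.022, and with organelle genes left out CER6 was 0.0043 and LTPG2 0.0022. With a library left out the values ran from -0.14 to 0.14 for CER6, -0.10 to 0.29 for WSD1, -0.084 to 0.19 for KCS1, -0.21 to 0.068 for KCS9, -0.16 to 0.0055 for KCS5, -0.38 to 0.019 for AT5G12420, -0.13 to 0.13 for LTPG2 and -0.12 to 0.044 for CER9. Depth limited CER4, which did not pass the filter of the main fit. DESeq2, run without that filter, gave it a log2 fold change of -0.96 (adjusted p = 0.80).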
